A study of Mus musculus with 8 samples.

Results

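The keratins of the basal and suprabasal layers of the epidermis were described in mouse dorsal skin. They comprise 3 genes assigned to the basal layer (Krt5, Krt14 and Krt15) and 5 assigned to the suprabasal layers (Krt1, Krt10, Krt2, Krt77 and Krt80). The members were every probe set of the array to which the platform annotation gives exactly 1 of these 8 gene symbols. That rule gave 10 probe sets of the 45037 examined, and 8 of the 18193 genes. Krt14 had 3 probe sets and the other genes 1 each, and the main probe set of a gene was the one with the highest mean over all 8 arrays. A further probe set that the annotation gives to both Krt17 and Krt14 was not used.

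The skin came from Hos:HR-1 females, hairless mice that were 10 weeks old at sampling. Collagen-fed mice received AIN-93G, a purified diet, with fish scale collagen hydrolysate mixed in at 2.0 g per 100 g of diet for 1 week, and control mice received AIN-93G alone. The series holds 4 arrays for each diet, called biological replicates in the labels, and the study kept 16 mice, 8 per diet. The sources used here do not tie an array to a mouse or cage, and do not say whether RNA was pooled. The tissue was powdered whole skin, so a lower share of keratinocytes and less keratin RNA per keratinocyte cannot be told apart.

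Keratins are the intermediate filament proteins of epithelial cells, and each filament is built from pairs of an acidic type I and a basic type II chain. Basal keratinocytes, which divide and sit on the basement membrane, make the pair Krt5 (type II) and Krt14 (type I), together with Krt15 (type I), which is also known from the stem cells of the hair follicle bulge. Cells that leave the basal layer switch to Krt1 (type II) and Krt10 (type I), and Krt2, a type II chain, is made in the upper spinous and granular layers of certain body sites. Krt77 and Krt80 are further type II keratins, of which Krt80 is associated with terminal differentiation and with desmosomes. In the RefSeq gene table of GRCm38.p6 the type I genes lie on chromosome 11 and the type II genes on chromosome 15, where Krt2, Krt1 and Krt77 lie next to each other.

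RefSeq promoter windows were at hand for Krt5, Krt14, Krt10, Krt2 and Krt77, and the 100 bases before each start are shown because they are the windows at hand for the keratins described below. All are given 5′ to 3′ on the minus strand of GRCm38.p6, with capitals marking a match to TATAA, the core of the TATA box.
Krt5 (chr15:101712906-101713005): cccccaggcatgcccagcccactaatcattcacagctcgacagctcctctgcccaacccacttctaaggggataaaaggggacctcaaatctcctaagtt
Krt14 (chr11:100206031-100206130): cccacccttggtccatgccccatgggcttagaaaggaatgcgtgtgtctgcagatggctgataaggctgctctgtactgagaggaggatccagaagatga
Krt10 (chr11:99389365-99389464): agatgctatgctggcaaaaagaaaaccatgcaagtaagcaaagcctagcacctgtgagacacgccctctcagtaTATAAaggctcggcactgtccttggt
Krt2 (chr15:101818170-101818269): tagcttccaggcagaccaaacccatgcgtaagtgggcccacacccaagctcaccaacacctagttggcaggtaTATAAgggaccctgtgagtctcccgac
Krt77 (chr15:101869706-101869805): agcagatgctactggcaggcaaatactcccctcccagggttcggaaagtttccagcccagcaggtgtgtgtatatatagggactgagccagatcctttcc
TATAA was searched on both strands, as were TGANTCA (AP-1) and GCCNNNGGC (AP-2). It began 26 bases before the start in Krt10 and 27 bases before it in Krt2, and no other match to these letters occurred in the 5 windows. Of 32851 windows of the same length, 10.2% held TATAA, 2.7% TGANTCA and 6.8% GCCNNNGGC. The starts used for Krt5 and Krt77 lie at the outer end of the gene in the RefSeq table, and those for Krt14, Krt10 and Krt2 lie inside the gene's span. A match is a description of these letters, and no array value bears on the windows.

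Of the 8 main keratin probe sets, 7 gave high signals and Krt2 did not. Mean levels over the 8 arrays, on the deposited log2 scale, were 13.26 for Krt5, 14.19 for Krt14 and 13.07 for Krt15. In the suprabasal group they were 13.63 for Krt1, 14.39 for Krt10, 13.58 for Krt77 and 11.13 for Krt80. Krt2 lay at 7.99, below 8.193, the median of all probe set means. Different probe sets bind with different strength, so these values do not rank the keratins by abundance. Detection calls were not used here, and whether Krt2 lay above background is not known.

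The deposited values hardly varied between arrays, and the keratins varied more than most probe sets of similar signal. Over all probe sets the median range over the 8 arrays was 7.36 millionths of a deposited log2 unit, a unit called millionths from here on. No source used here tells which processing made the ranges so small, and differences are therefore not read as fold changes. Ranges were smallest at the top of the scale. Krt14 and Krt10 had ranges of 0.57 and 1.56 millionths, where the median among the 95 probe sets above a level of 14 was 0.14. Krt1 and Krt77 spanned 61.1 and 141 millionths, where the median between 13.5 and 14 was 0.93. The range of Krt77 was wider than that of 97.3% of the 148 probe sets in that interval, and that of Krt15, 189 millionths, was wider than 91.9% of the 209 between 13 and 13.5. Each of the 10 keratin probe sets had a range above the median of its own half-unit level interval, from the 63.4th percentile for the dimmest Krt14 probe set to the 99.9th for Krt2.

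**Figure D1:**
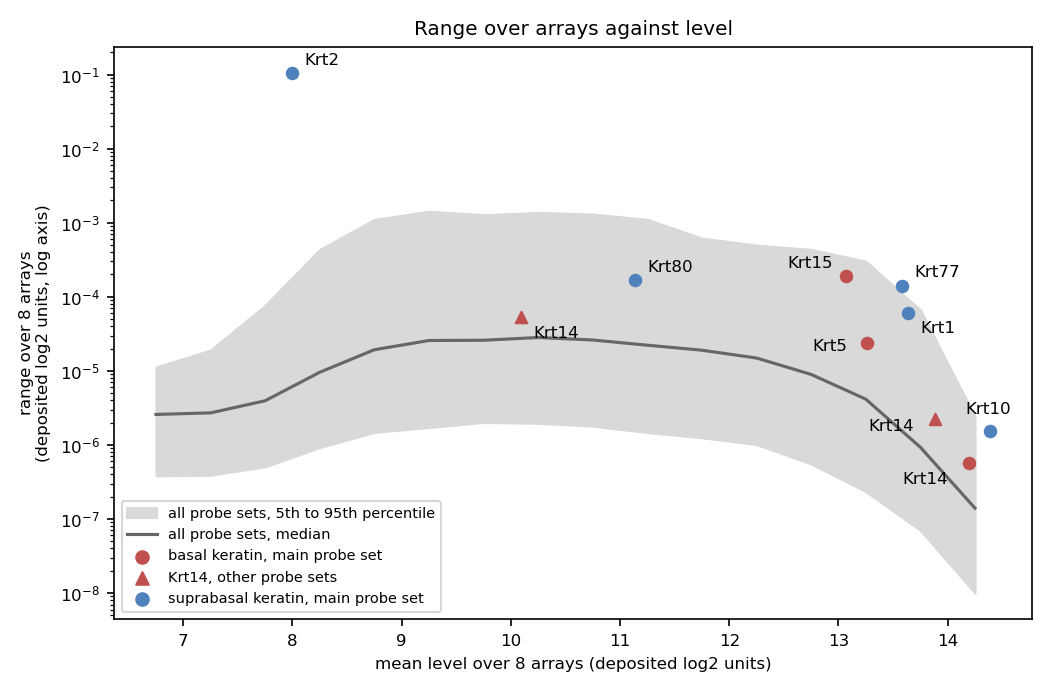
Range over the 8 arrays (log axis) against mean level, both in deposited log2 units, for 10 keratin probe sets (circles for main probe sets, triangles for the other Krt14 probe sets) over the median line and the 5th to 95th percentile band of all 45037 probe sets in half-unit level intervals. Krt2, at a level of 7.99 with a range of 0.105, stands far above the band, and Krt14 and Krt10 lie at the bright end where ranges are smallest.

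Krt5, the type II chain of the basal filament, showed a single low array. Its deviations from the mean of all 8 arrays were -1.88, 7.87, -0.91 and 4.85 millionths in the collagen arrays 1 to 4, against -16, 7.86, 0.38 and -2.18 in the control arrays 1 to 4. Collagen 2 and control 2 were nearly level at the top and control 1 was lowest, so the diets overlapped. The mean deviation was 2.48 ± 4.66 millionths with collagen and -2.48 ± 9.97 with control (SD, n = 4 each).

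Krt14, the type I partner of Krt5, was the 1 main probe set whose diets did not overlap. The deviations of its main probe set were 0.04, 0.36, 0.06 and 0 millionths in the collagen arrays 1 to 4, against -0.21, -0.13, -0.08 and -0.06 in the control arrays 1 to 4. All 4 collagen arrays lay above all 4 control arrays, with collagen 2 well above the rest. The whole range of 0.57 millionths compares with a last deposited digit of 0.01 millionths. The second probe set, at a level of 13.88, gave 0.08, 1.38, 0.26 and -0.22 millionths with collagen and -0.88, -0.67, -0.17 and 0.2 with control, where control 4 lay above collagen 1 and collagen 4. The third, at 10.1, gave 30.5, 15.3, -19.2 and 10.2 millionths with collagen and -2.74, 6.77, -17.9 and -22.9 with control, where collagen 3 lay within the control range. The main and the second probe set followed each other over the arrays (Pearson r = 0.95, over 8 arrays), while the third followed neither closely (r = 0.35 with the main and 0.14 with the second). The suffix of the main probe set (_x_at) marks probes that may also match other transcripts.

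Krt15, the other basal type I keratin, had the widest spread of the basal genes. Its deviations were 108, -81, -6.27 and 23.6 millionths with collagen, against 43.8, -9.41, -37.8 and -41.2 with control. The highest and the lowest array were both collagen arrays, collagen 1 and collagen 2, and the control values lay between them. The SD was 78.3 millionths with collagen and 39.3 with control (n = 4 each).

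Krt1, the type II chain of the suprabasal filament, deviated by -15.3, 36.5, 7 and -20.8 millionths with collagen, against -24.6, 1.23, 20.6 and -4.73 with control. Krt10, its type I partner, deviated by 0.16, 0.95, 0.05 and -0.61 millionths with collagen, against -0.33, -0.13, 0.32 and -0.44 with control. Both were highest in collagen 2, and in both the control values lay inside or next to the collagen range.

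Krt2 was the dimmest keratin and the most variable. Its levels were 7.94, 8.02, 8.05 and 7.99 in the collagen arrays 1 to 4, against 7.97, 8.02, 7.98 and 7.97 in the control arrays 1 to 4. The lowest and the highest array were again both from collagen-fed mice. Only 27 of the 45037 probe sets had a range wider than its 0.105, and among the 3425 probe sets within 0.1 of its level the median range was 6.06 millionths.

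Krt77 deviated by 54.2, -86.3, 15.2 and -11.3 millionths with collagen, against 42.9, 20.2, -7.36 and -27.5 with control. Collagen 1 was highest and collagen 2 lowest, the order also seen in Krt15. Krt80 deviated by 0.5, 3.05, 37.1 and -93 millionths with collagen, against 74.6, -8.39, 23.4 and -37.3 with control, so that its extremes were control 1 and collagen 4.

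**Figure D2:**
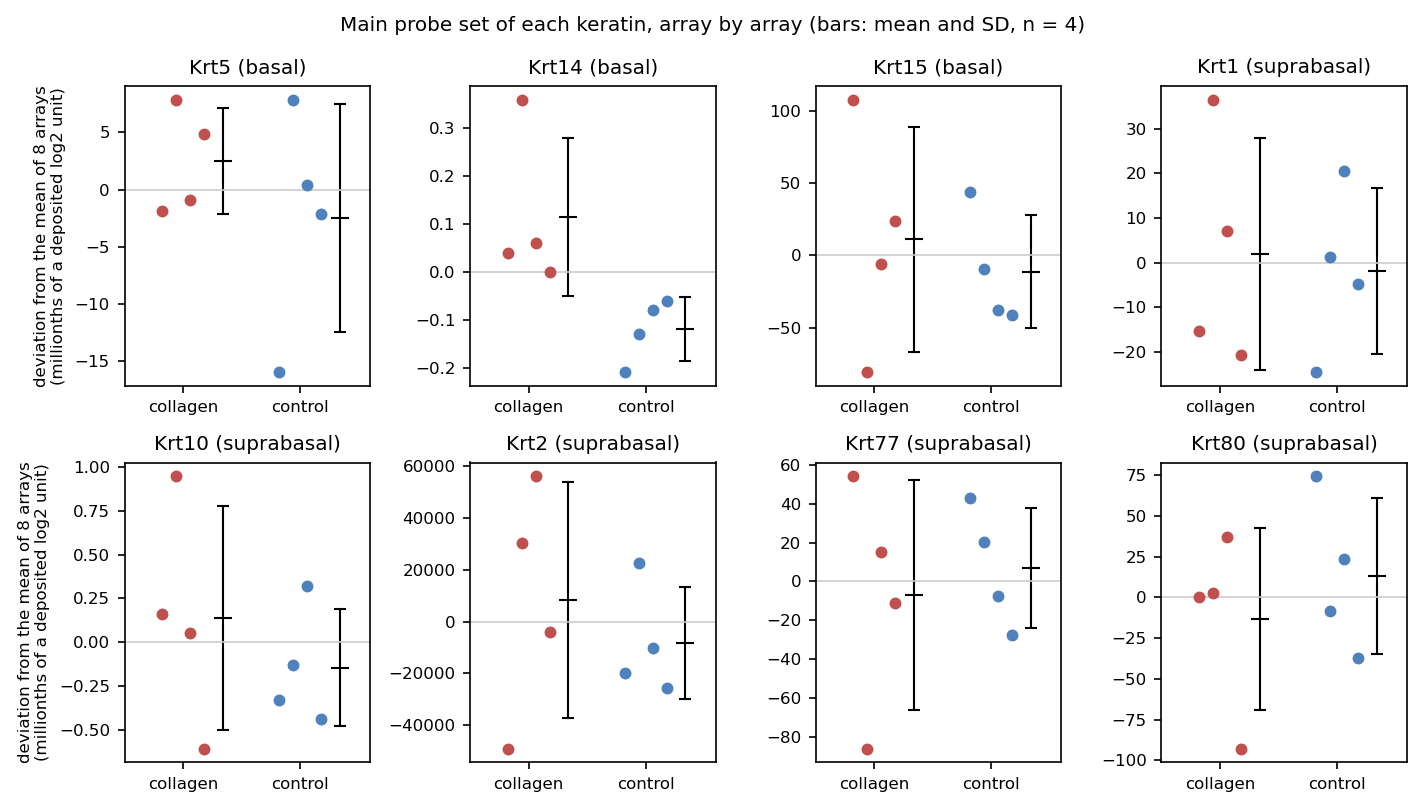
Deviation of each keratin's main probe set from its own mean over 8 arrays, in millionths of a deposited log2 unit, for the 4 collagen arrays and the 4 control arrays (points) with mean and SD (bars), each panel on its own scale. The diets overlap in each gene except Krt14, where the collagen arrays lie between 0 and 0.36 and the control arrays between -0.21 and -0.06.

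The comparison of the diets asks whether the deposited keratin values differed after 1 week of collagen hydrolysate. Among all probe sets, 6 of the 8 main keratin probe sets held the same rank in each of the 8 arrays. The share of all probe sets that did so is not given here. A fixed rank did not follow from a small range alone. Krt15, with a range of 189 millionths, kept its rank, and Krt80, with 168, did not. No keratin was separated from the spread between arrays across the whole table. With limma and an adjusted p threshold of 0.05, 0 of 10 keratin probe sets passed, against 0% of all 45037 probe sets. At unadjusted p under 0.05 the count was 0 of 10 keratin probe sets, against 3.55% of all (2.25% higher and 1.31% lower with collagen), and the unadjusted limma p ran from 0.141 to 0.815. The values of the diets did not overlap in 1 of 10 keratin probe sets, the main Krt14 probe set, against 2.01% of all probe sets. Of the 8 main probe sets, 6 were higher with collagen, against 52.9% over the main probe sets of all genes. Their median difference was 0.41 within-group SD, against 0.05 over all genes.

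Among the basal genes the difference, collagen minus control with limma's SE, was 4.97 ± 5.28 millionths for Krt5, 0.235 ± 0.209 for Krt14 and 22.3 ± 42 for Krt15. As multiples of the within-group SD these are 0.64, 1.86 and 0.36. Without control 1 the difference of Krt5 was 0.462 millionths, and without collagen 2 that of Krt14 was 0.153. The other Krt14 probe sets differed by 0.755 ± 0.451 and 18.4 ± 11.9 millionths, or 1.25 and 1.04 SD, so all 3 probe sets of the gene lay on the same side. For the main Krt14 probe set an exact permutation test over 70 assignments gave a two-sided p of 0.0286, the smallest that 4 against 4 arrays allow, before any adjustment. It gave 0.129 and 0.171 for the other Krt14 probe sets. This test gives 0.0286 whenever the diets do not overlap, which held for 2.01% of all probe sets. The limma p of the main probe set was 0.3 (adjusted p = 1), since limma's variance prior raised its SE to 1.66 within-group SD, where that of Krt5 and Krt15 was 0.68 SD.

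Among the suprabasal genes the difference was 3.73 ± 15.4 millionths for Krt1, 0.282 ± 0.395 for Krt10, -14.1 ± 32.1 for Krt77 and -26.2 ± 35.3 for Krt80. For Krt2 it was 0.0167 ± 0.0241 deposited units. Without collagen 2 the difference of Krt10 was 0.0117 millionths. These differences lay between -0.50 SD (Krt80) and 0.55 SD (Krt10), and exact permutation p-values ran from 0.443 for Krt10 to 0.857 for Krt1. In the self-test on simulated data, the same limma fit over 45037 probe sets with 200 changed recovered 1.3% of shifts of 2 SD, 19.9% of 4 SD and 88.9% of 8 SD. The largest keratin difference, 1.86 SD, lay below the smallest of these simulated shifts. These rates are averages over randomly chosen probe sets. They do not describe the main Krt14 probe set, which gave that difference, since its SE was 1.66 SD against 0.68 SD for Krt5 and Krt15.

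**Figure D3:**
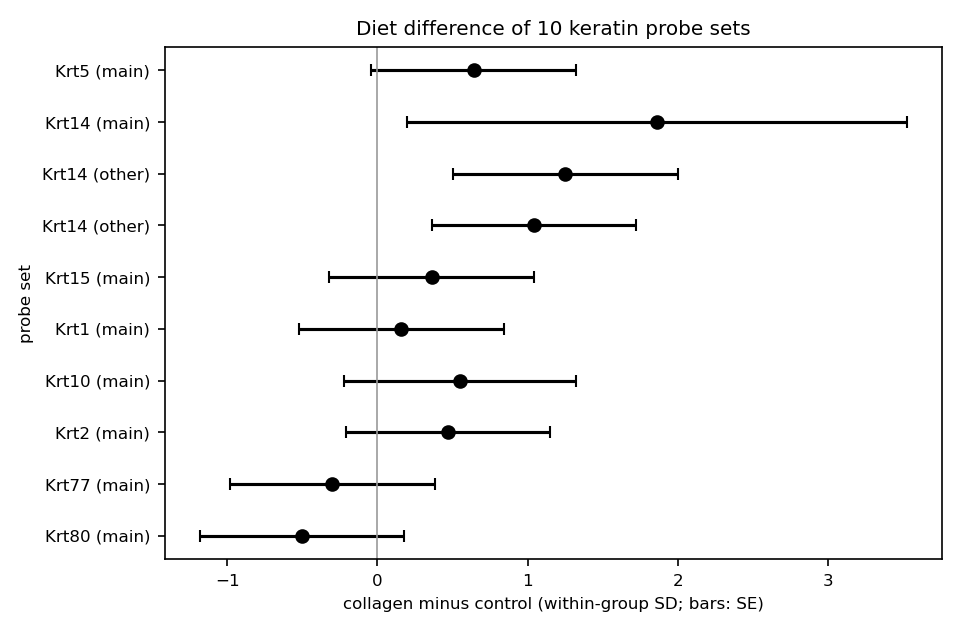
Collagen minus control for the 10 keratin probe sets as multiples of the within-group SD (points), with limma's SE (bars). The differences run from -0.50 for Krt80 to 1.86 for the main Krt14 probe set, whose bar is the longest.

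The balance of suprabasal over basal keratin was compared within arrays. The difference of Krt10 minus Krt14, the type I chains, deviated from its own mean by 0.121, 0.591, -0.00875 and -0.609 millionths in the collagen arrays, against -0.119, 0.00125, 0.401 and -0.379 in the control arrays. The diets overlapped and differed by 0.0475 millionths (exact permutation test, p = 0.886). Krt1 minus Krt5, the type II chains, differed by -1.23 millionths between the diets (exact p = 0.943). The partners of a filament gave 4.73 millionths for Krt5 minus Krt14 (exact p = 0.543) and 3.45 for Krt1 minus Krt10 (exact p = 0.857). Over the 4 pairs each adjusted p was 0.943. Each value follows mainly the member with the wider deposited range, which is Krt1 or Krt5 in the last 3 pairs.

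Over the 8 arrays the correlations of 7 of the 8 keratins fell into a pattern of 2 sets, although no pair passed the adjusted test. The sets were read from these same values. Krt80 belonged to neither set, with r = 0.36 with Krt10 and 0.34 with Krt77 but -0.61 with Krt5 and -0.18 with Krt14. Krt1, Krt10, Krt14, Krt5 and Krt2 were positively correlated in each of their pairs, Krt15 and Krt77 were positively correlated with each other, and each of the 5 was negatively correlated with both Krt15 and Krt77. These signs depended on few arrays. Of the 21 pairs among these 7 genes, 3 turned sign without collagen 2 alone (Krt10 with Krt77, r = 0.36, Krt14 with Krt15, 0.19, and Krt15 with Krt10, 0.06). Without the 2 arrays farthest from the median of the first gene of a pair, 7 of the 21 turned, among them Krt14 with Krt1 (-0.37) and Krt14 with Krt15 (0.57). Of 28 pairs, 16 had a positive and 12 a negative Pearson r, 5 had an unadjusted exact permutation p under 0.05, and 0 passed after adjustment over the 28 pairs. With Spearman's rho, 3 had an unadjusted p under 0.05 and 0 passed. All values of an array share its hybridisation and its normalization.

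Krt15 and Krt77 gave the strongest correlation, with r = 0.86 (exact permutation p = 0.00871, adjusted p = 0.122) and rho = 0.83 (exact p = 0.0154, adjusted p = 0.343). Without collagen 1 and collagen 2, the arrays farthest from the Krt15 median, r was 0.68. Krt1 and Krt10, the partners of the suprabasal filament, gave r = 0.85 (exact permutation p = 0.00744, adjusted p = 0.122) and rho = 0.76 (exact p = 0.0368, adjusted p = 0.343). Without collagen 2 and control 1 their r was 0.66. Without collagen 1 alone this pair passed the adjusted test, with r = 0.93. Krt15 and Krt1 ran in opposite directions, with r = -0.79 (exact permutation p = 0.0191, adjusted p = 0.178), rho = -0.76 (exact p = 0.0368, adjusted p = 0.343) and r = -0.81 without collagen 1 and collagen 2.

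The basal partners Krt5 and Krt14 were less alike, with r = 0.56 (exact permutation p = 0.165, adjusted p = 0.355) and rho = 0.38 (exact p = 0.36, adjusted p = 0.574). Without collagen 2 and control 1 their r was -0.54, so its sign depended on those arrays together, picked as farthest from the Krt5 median. With any 1 array left out it stayed between 0.31 and 0.79. Krt14 with Krt10 gave r = 0.74 (exact permutation p = 0.0459, adjusted p = 0.257) and rho = 0.43 (exact p = 0.299, adjusted p = 0.574). Their r was 0.22 to 0.85 with any 1 array left out, and 0.07 without both collagen 2 and control 1. Krt1 with Krt77 gave r = -0.72 (exact permutation p = 0.0425, adjusted p = 0.257) and rho = -0.50 (exact p = 0.216, adjusted p = 0.574), and r = -0.18 without them. With the diet means removed, r was 0.92 for Krt15 with Krt77, 0.86 for Krt1 with Krt10 and -0.83 for Krt15 with Krt1. It moved by more than 0.1 in 6 of the 28 pairs, the widest move being Krt14 with Krt15 (-0.81, against -0.39 with the diet means kept), and Krt14 with Krt1 became 0.87, against 0.66.

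**Figure D4:**
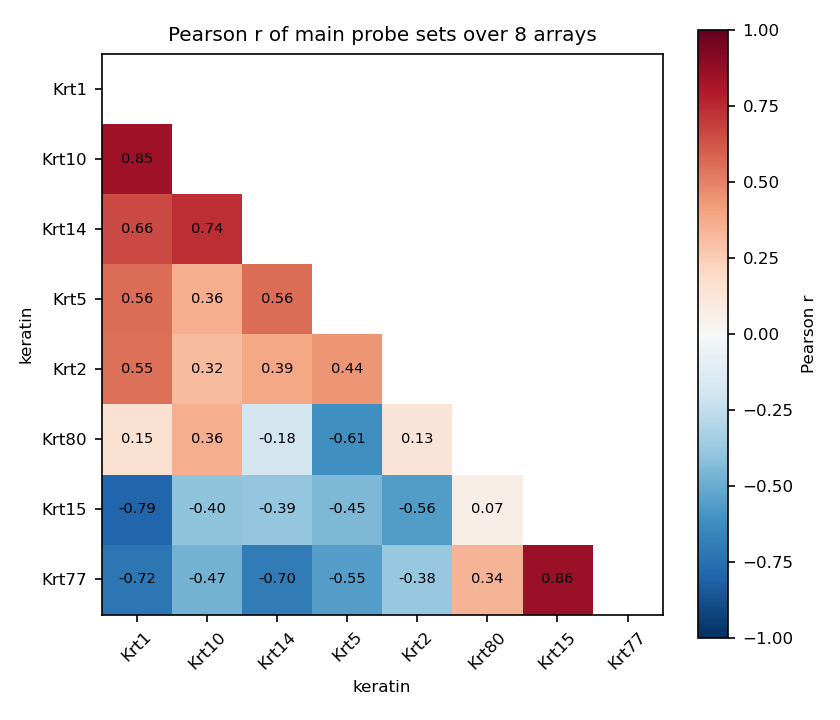
Pearson r over 8 arrays for each of the 28 pairs of main keratin probe sets, on a colour scale from -1 (blue) to 1 (red). Krt1, Krt10, Krt14, Krt5 and Krt2 form a red block, and the rows of Krt15 and Krt77 are blue against it and red with each other (0.86).

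A single array stood at the extreme of 6 of the 8 keratins. The share of all probe sets with that array at an extreme is not given here. Collagen 2 was highest for Krt1 (z = 1.73, in SD over the 8 arrays), Krt10 (1.92), Krt14 (2.11) and, narrowly over control 2, Krt5 (1.03), and lowest for Krt15 (-1.38) and Krt77 (-1.94). Collagen 4, from the same diet, was lowest for Krt10 (-1.22) and Krt80 (-1.85). A list of 12 other genes, called early suprabasal here, gave the same extremes as a mean. Its mean z (the list holds the secreted proteins Sbsn, Krtdap and Dmkn) was highest in collagen 2 (1.56) and lowest in collagen 4 (-1.38). Single genes of the list differed. Fabp5 was lowest in control 4 (-0.485 millionths) and Tgm3 in collagen 4 (-110 millionths). Markers of 3 other cell types had their lowest mean z in collagen 2. This value was -1.58 in collagen 2 and 0.58 in collagen 4 for 10 fibroblast markers, -1.21 and 1.04 for 8 leukocyte markers, and -0.89 and 1.38 for 6 adipocyte markers. The other marker lists had smaller values in collagen 2, of either sign, from -0.56 for the follicle bulge to 0.77 for melanocytes. In collagen 4 these lists lay between -0.65 for hair shaft keratins and 0.26 for the follicle bulge. All members of the fibroblast, leukocyte and adipocyte lists lay above the median level. Their part in the covariation of the keratins was not tested.

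Krt15 and Krt77 were both highest in collagen 1 and second highest in control 1, the arrays with the largest difference between the 3′ and 5′ Gapdh control probe sets. This difference was 0.2906 in collagen 1 and 0.2900 to 0.2901 in the other collagen arrays, against 0.2904 in control 1 and 0.2898 in the other control arrays. Leaving out these arrays was chosen after seeing the data. Without them r was 0.77 for Krt15 with Krt77, -0.85 for Krt15 with Krt1 and 0.98 for Krt1 with Krt10 (n = 6). The exact permutation p, before adjustment, was 0.0778, 0.0306 and 0.00139 in that order.

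**Figure D5:**
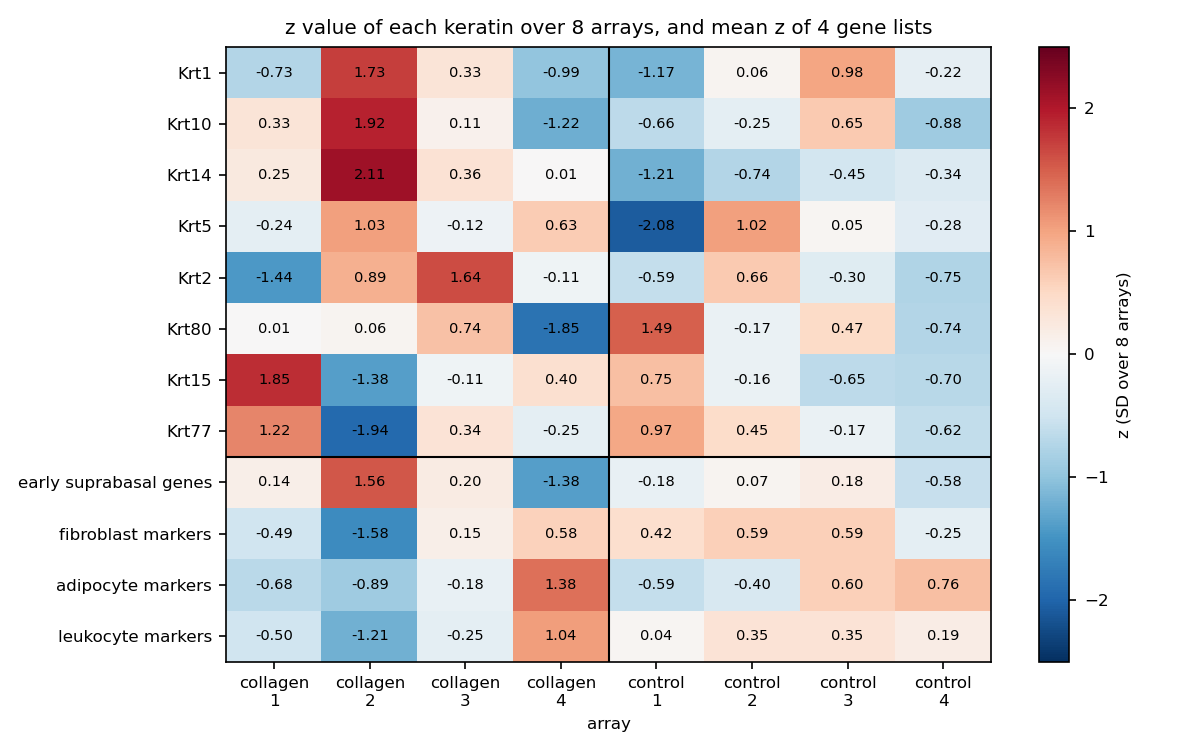
z value of each keratin (SD over the 8 arrays) and mean z of 4 gene lists in each array, collagen arrays left of the line and control arrays right of it. Collagen 2 is red for Krt1, Krt10, Krt14 and the early suprabasal genes and blue for Krt15, Krt77 and the fibroblast, adipocyte and leukocyte markers.

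The genes most like Krt14 and Krt10 over the 8 arrays were ranked by Pearson r among 11590 genes at or above the median level. For Krt14 these were Nif3l1 (r = 0.97), Polr3e, a subunit of RNA polymerase III (0.97), Eif2b3, a subunit of a translation initiation factor (0.96), Krt16 (0.96) and Xrcc5, a DNA repair protein (0.96). Krt16, a keratin of stressed epidermis and the genomic neighbour of Krt14, deviated by 0.91, 234, 12.9 and 25 millionths with collagen, against -96.7, -40.4, -64.5 and -71.6 with control. Its r was 0.86 with the second Krt14 probe set and 0.46 with the third. For Krt10 the list was Arrdc4 (0.98), Sdr9c7, an epidermal dehydrogenase of the ceramide barrier (0.98), Cip2a (0.98), Ggct (0.97) and Rab11a, a vesicle transport GTPase (0.96). Krt1 ranked 269 for Krt10, and Krt5 ranked 1540 for Krt14. With 8 arrays and this many genes such values are a description and carry no test. Each gene of both lists was highest in collagen 2, as were Krt14 and Krt10, and their r without that array is not given here.

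Genes that work with these keratins likewise gave no call between the diets by limma. Of 12 genes that anchor keratin filaments to junctions, 8 were higher and 4 lower with collagen, 0 passed the adjusted test, and the median difference was 0.17 within-group SD. Itgb4, the hemidesmosome integrin chain, had -5.23 ± 2.03 millionths, the 1 gene of the list with an unadjusted limma p under 0.05, and Col17a1, a transmembrane collagen of the hemidesmosome, 4.27 ± 2.21. Of 21 measured regulators of keratinocyte fate, 12 were higher and 9 lower, 0 passed with or without adjustment, and the median was 0.23 SD. Trp63, the p63 factor that maintains the basal state, had 62 ± 25.8 millionths and Dll1, a Notch ligand, -5.15 ± 2.77. Of the 12 early suprabasal genes 9 were higher and 3 lower, 0 passed with or without adjustment, and the median was 0.38 SD, with 0.325 ± 0.272 millionths for Fabp5, a fatty acid binding protein, and -54.3 ± 46.3 for Tgm3, a transglutaminase.

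Markers of other compartments of the skin were counted beside them, and none of these genes passed the adjusted limma test. An unadjusted p under 0.05 was reached by 1 skeletal muscle, 1 leukocyte and 2 melanocyte markers, where 3.55% of all probe sets reached it. Over the main probe sets of all genes 52.9% were higher with collagen. Lower with collagen were 10 of 10 fibroblast, 9 of 9 inner root sheath and companion layer, 11 of 12 skeletal muscle, 7 of 10 hair shaft keratin, 5 of 6 follicle bulge, 4 of 6 adipocyte and 6 of 8 leukocyte markers. Higher were 4 of 6 sebaceous gland and 6 of 6 melanocyte markers. Genes of a list share the same arrays, so these counts are not independent observations. In each of these lists the mean z of the diets overlapped. Over the collagen arrays it ran from -1.72 to 1.00 for the inner root sheath and companion layer. It ran from -1.58 to 0.58 for fibroblast and from -1.38 to 0.24 for skeletal muscle markers. The median differences ran from -0.90 SD for skeletal muscle to 1.01 SD for melanocyte markers. Of these lists, the follicle bulge is a compartment where Krt15 is known to be made. Its mean z was -0.89, -0.56, 0.68 and 0.26 in the collagen arrays 1 to 4. In the control arrays 1 to 4 it was -0.22, 0.92, 0.06 and -0.25. Its relation to Krt15 over the arrays was not tested.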

How the data were processed

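Total RNA from powdered frozen dorsal skin was labelled with biotin and hybridised to 1-colour Affymetrix 3′ arrays, per the labels' protocols. The values are log2 intensities, as judged from their range, in the table that the authors deposited for all 8 arrays. R 2.7.2 is named in the submitters' processing notes, and no source used here gives the summary method, the normalization or a genome build. No pair of arrays held identical columns, with 30 to 53 equal values per pair. Precision is set by the number of arrays.

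Of 45101 probe sets 64 controls were left out. The platform annotation gave 1 symbol for 34945 of the 45037 kept, several for 932 and none for 9160. Collagen was compared with control by limma 3.58.1 in R 4.3.3 (lmFit, eBayes, two-sided, Benjamini-Hochberg over 45037 probe sets, threshold 0.05, prior degrees of freedom 0.514), tested on simulated data. Pairs of keratins were tested by exact permutation over arrays. Named genes were the 8 keratins, the 5 genes most correlated with Krt14 and with Krt10, and the 2 genes of smallest p in each list of partner genes. Krt16 and the marker lists set beside the keratins were described further after their values were seen. The members and lists were chosen with earlier results of these data known. Alternatives were left-out arrays, quantile normalization, median centring, a filter on dim probe sets, other variance and feature settings, a replicate block and, chosen after seeing the data, leaving out collagen 1 and control 1 together. Figures used matplotlib 3.10.9. The labels call the arrays biological replicates.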

Additional observations from a re-analysis of the deposited data

Results flagged for a closer look

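Collagen 2 was far above the other 3 collagen arrays for the main Krt14 probe set, at 0.36 millionths against 0.06 or less. Its gap to the next array made up 0.833 of the range of the collagen group, just past Dixon's critical value at the 95% level. This was the 1 case among the 24 sets of 4 values examined (8 main keratin probe sets and 4 within-array differences, in each diet), and chance gives such a gap in about 1 of 20 sets.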

How the results depend on the processing

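Values below are in millionths of a deposited log2 unit. The count of keratin probe sets called by limma was 0 under each alternative run, and the count over the whole table was 0 except after quantile normalization, where it was 2, neither of them a keratin. Krt5, Krt14, Krt15, Krt1, Krt10 and Krt77 held the same rank on each array, so quantile normalization gives each a single value by construction and a difference of 0. Krt80 then differed by 47 instead of -26.2, and only 1 of 28 correlations could be computed. Array medians spread over 331, more than the range of any main keratin probe set but Krt2, and median centring therefore replaced those ranges with that of the medians. The difference became 60.1 for Krt5, 55.4 for Krt14, 55.5 for Krt10, 41.1 for Krt77 and 29 for Krt80, the last 2 opposite in sign to the values as deposited, and 7 keratin pairs passed. Averaging all probe sets of Krt14 turned Krt10 minus Krt14 to -6.17 and Krt5 minus Krt14 to -1.49, since the dimmest probe set has the widest range. With 1 array left out, the difference ran from -0.142 to 0.258 for Krt10 minus Krt14, from -11 to 7.1 for Krt1 minus Krt5, from -7.82 to 10.8 for Krt1 minus Krt10, from -7.81 to 11.3 for Krt1, from -10.1 to 53 for Krt15, from -34.5 to 12.3 for Krt77 and from -43 to 0.447 for Krt80, so none of these signs was stable. The sign held for Krt14 (0.153 to 0.273), Krt5 (0.462 without control 1 to 8.42), Krt10 (0.0117 without collagen 2 to 0.532), Krt2 (761 without collagen 3 to 3.58e+04) and Krt5 minus Krt14 (0.258 without control 1 to 8.18). The number of correlated pairs was 0 to 1 with 1 array left out, the 1 being Krt1 with Krt10 without collagen 1, and the same single pair passed without both collagen 1 and control 1 (1 of 28). Whether replicate numbers pair the arrays is not known. Same-numbered arrays had correlations of 0.36, 0.06, 0.20 and 0.03, and 4 of 8 arrays correlated best with their own number. These are not correlations of the deposited levels, which hardly varied between arrays. With the replicate block 0 probe sets were called, and 9 keratin pairs passed on values with diet and replicate means removed, which leave few degrees of freedom. In such values each collagen array is the exact negative of the control array of the same number. The arrays are then not free of each other, and these 9 calls are not read as results. Under the exact permutation test in place of limma only the main Krt14 probe set had an unadjusted p under 0.05 (0.0286). The other Krt14 probe sets gave 0.129 and 0.171 in that test. With 4 against 4 arrays the value of 0.0286 restates that the diets did not overlap, which held for 2.01% of all probe sets. Signal over background is unknown.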
